A study of Drosophila melanogaster with 3 samples.

Results

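The odorant receptor (Or) and gustatory receptor (Gr) genes of Drosophila melanogaster are described here across 3 chromosome contact arrays. The genes were taken by name from the authors' deposited tables that pair called peaks with nearby genes: Or or Gr, a number for the cytological band, and a letter. This gave 95 genes, 41 Or and 54 Gr, of the 12273 genes in those tables. The tables hold only genes within 5 kb of a peak with a false discovery rate (FDR) of at most 0.2 in some array, so they do not cover the whole family. Of the 130 receptor symbols in the RefSeq gene table of Release 6, 95 were present under these names, and 2 more, Gr5a and Grl40a, were listed under other names (Tre and CG41434). By accession, 94 of the 95 genes matched RefSeq. For 4 of them the symbol has since changed: Or83b is now Orco, and Gr36d, Gr43b and Gr65a are Grl36a, Grl43a and Grl65a. The genes lie on all major arms, with 17 on 2L, 23 on 2R, 21 on 3L, 23 on 3R and 11 on X.

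Odorant receptors are membrane proteins of olfactory neurons in the antenna, the maxillary palp and the larval head. Each is a ligand-gated channel made of a tuning receptor, which binds the odour, and the coreceptor Orco, which nearly all of them need. Gustatory receptors are related proteins that detect sugars, bitter compounds and carbon dioxide, mostly in taste neurons. Both families consist of small genes spread over the genome singly or in short tandem clusters, and each gene is used by few cells of the fly.

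All 3 arrays used S2-DRSC cells, an embryonic Drosophila cell line that does not form sensory neurons. The chromatin was fixed with formaldehyde, cut with DpnII, ligated, and amplified outward from a bait fragment by 2 rounds of inverse PCR (circular chromosome conformation capture, 4C). The baits are insulator binding sites: BaitA (3R, positions 91997 to 92920), BaitB (2L, positions 8485115 to 8485894) and BaitC (3R, positions 384440 to 385252). A single tiling array was hybridised per bait, with its 4C product in Cy5 and DpnII-cut, unligated genomic DNA in Cy3 as the background. With 1 array per bait there is no replicate error, no test between arrays was possible, and every value below is a description of that array. The BaitA and BaitB samples were run one after the other on a single slide and BaitC on a different slide, per the file headers. Between BaitC and the other baits, slide and bait therefore cannot be told apart. The arrays measure DNA, so neither receptor expression nor the identity of the cells could be checked in them.

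The level of a gene is the mean log2 ratio of 4C product over unligated DNA of the probes within 1 kb of its start sites, minus the median of all probes on the array. The receptor genes had 30 to 142 such probes, with a median of 36. To compare arms, the median level of all genes on the arm was subtracted, and genes within 200 kb of the array's own bait were left out. That step removed 1 receptor gene, Or82a, from the BaitA comparison. A gene is called raised or lowered where this difference was at least 1 log2 unit, a ratio of 2, above or below the arm median.

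As a group, the receptor genes had medians near those of all genes of their arms in all 3 arrays. Their median difference from the arm was 0.10 in the BaitA array (95% order-statistic interval over genes -0.32 to 0.54, n = 94 genes). It was -0.15 in the BaitB array (-0.59 to 0.17, n = 95) and 0.10 in the BaitC array (-0.13 to 0.25, n = 95). These are intervals of the median over genes and not of the error between arrays, and each includes 0. They take the genes as independent. In fact 45 of the 95 genes lie in clusters and some pairs share most probes, so the intervals may be too narrow. With each cluster averaged to 1 value, the medians were 0.11, -0.01 and 0.10 with BaitA, BaitB and BaitC. Above the arm median were 50 of 94 genes with BaitA, beside 50.0% of all genes. With BaitB 43 of 95 were above it and with BaitC 53 of 95, again beside 50.0% of all genes each. That share of all genes is set by subtracting their arm median.

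Single receptor genes ranged from -2.97 to 3.07 with BaitA, from -2.95 to 3.45 with BaitB and from -1.80 to 1.60 with BaitC. With BaitA, 23 of 94 genes were raised, beside 25.6% of all genes, and 25 were lowered, beside 25.4%. With BaitB, 21 of 95 were raised, beside 26.2%, and 30 were lowered, beside 26.4%. With BaitC, 8 of 95 were raised, beside 9.59%, and 7 were lowered, beside 9.45%. The counts were thus near the background in all 3 arrays, with the lowered genes of the BaitB array the farthest from it. Receptor genes and all genes alike were listed through a called peak in these same arrays. Their levels, raised and lowered counts and extremes therefore depend on that listing. The SD over receptor genes was 1.46, 1.53 and 0.71 log2 units with BaitA, BaitB and BaitC, beside 1.44, 1.47 and 0.76 over all genes.

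**Figure D1:**
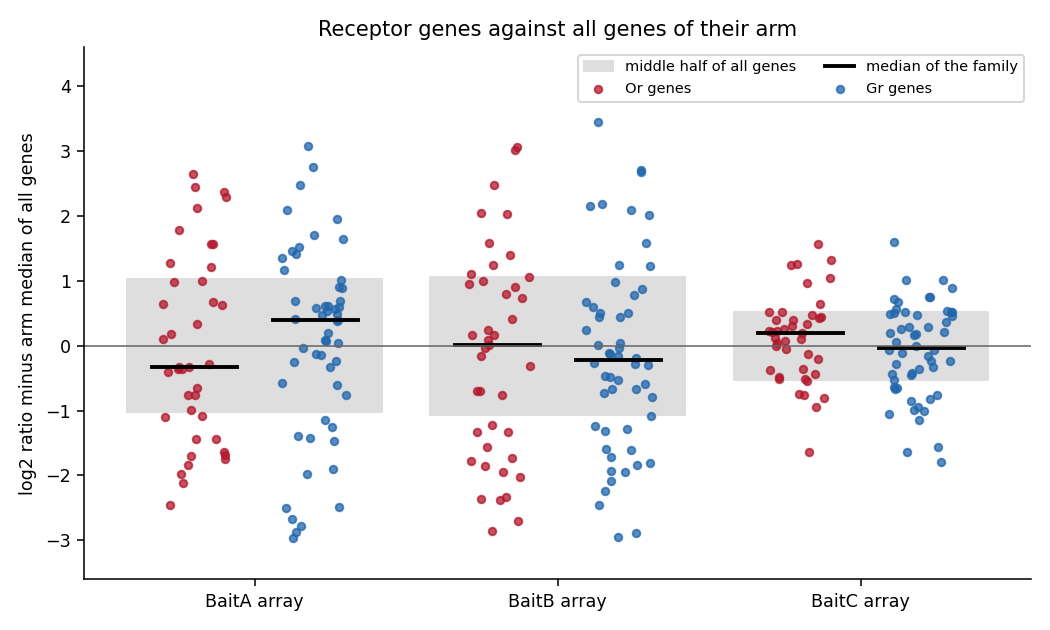
Difference of each receptor gene from the median of all genes of its arm (log2 ratio, vertical axis) in the 3 arrays; each point is a gene (red Or, blue Gr), black lines are family medians and grey boxes span the middle 50.0% of all genes. Points of both families lie above and below 0 in every array, and the BaitC array has the narrowest spread (SD 0.71).

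The difference between the families was not tested. The Or median was -0.32 with BaitA, 0.01 with BaitB and 0.19 with BaitC, and the Gr median was 0.39, -0.23 and -0.03. Each of these 6 medians had an interval over genes, again taken as independent, that included 0. By arm, the lowest share above the arm median was on 2L in the array of BaitB, the bait on that arm, where 4 of 17 receptor genes were above it and 8 (47.1%) were lowered, beside 28.6% of all 2L genes lowered. This arm is given because it stood farthest out. Their median difference was -0.27. Against the other genes within 250 kb, 7 of these 17 were above, with a median of -0.75. Over all arms, 52 of 94, 48 of 95 and 51 of 95 receptor genes were above their neighbours within 250 kb with BaitA, BaitB and BaitC.

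On the arm of the bait the level of all genes declined with distance, and few receptor genes lay close to a bait. Or82a, which encodes a receptor for geranyl acetate (3R, 82693 to 84166, plus strand), starts 9.304 kb from BaitA and 301.75 kb from BaitC. Its level was 7.89 ± 0.90 (SD over 33 probes) with BaitA, 0.19 ± 2.05 with BaitB and 1.59 ± 0.68 with BaitC. It was thus high in the BaitA array and above its arm by 1.32 in the BaitC array, the third highest receptor gene there. The 8 other genes within 20 kb had levels of 7.79 to 8.36 in the BaitA array, with 2 of them below Or82a, and of 0.88 to 3.02 in the BaitC array, with 3 below it. Or82a therefore stood within the range of its neighbours in both arrays.

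The next receptor genes on 3R are Or83a and Orco, which start 1132 and 1142.7 kb from BaitA. Or83a (3R, 1223364 to 1224918, minus strand) had a level of 3.02 ± 2.66 (SD over 37 probes) with BaitA, -1.05 ± 2.40 with BaitB and -0.10 ± 1.34 with BaitC. Orco, the coreceptor (3R, 1233173 to 1235645, minus strand), had 2.68 ± 1.68, -1.15 ± 2.11 and 1.83 ± 1.46 over 37 probes. The neighbouring pair was alike with BaitA and BaitB and 1.93 log2 units apart with BaitC. In the BaitA array the other genes within 250 kb had a median of 2.25 around Or83a and 2.33 around Orco, and single neighbours ranged from -3.16 to 4.52. In the BaitC array Orco was above 71 of its 77 neighbours, whose median was 0.82, and Or83a was above 15 of 74. Or83c, a receptor for farnesol further along the arm, had a level of -1.30 in the BaitA array, above 1 of its 40 neighbours, whose median was 1.27.

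On 2L the receptor gene nearest to BaitB was Or30a, a larval receptor 625.92 kb away (2L, 9111813 to 9113285, plus strand). Its level was -1.75 ± 1.02 (SD over 36 probes) with BaitA, 2.59 ± 0.73 with BaitB and -1.45 ± 1.29 with BaitC. In the BaitB array it was above the arm median by 1.10 but above only 8 of 48 neighbours, whose median was 4.75. It was above 1 of these neighbours in the BaitA array and above 0 of them in the BaitC array. Gr28a, on the other side of the bait at 1030.9 kb (2L, 7452540 to 7454169, minus strand), had levels of 1.28 ± 0.55, 3.65 ± 0.51 and -1.61 ± 0.98 over 36 probes. It was above 37 of 41 neighbours in the BaitB array and above 0 of 41 in the BaitC array, where it was the lowest receptor gene against its arm, at -1.80. That low level covers the 1 kb around the start only. A called BaitC peak (score 3.11, FDR 0.0204) lies inside the span of Gr28a, 1279 bp from its start. Gr28b, its neighbour and a gene with a role in warmth and light sensing, had levels of 0.57, 1.34 and -0.14. Within 1 kb of their starts, Or30a and Gr28a were thus above the arm median with the bait of their own arm and the lowest of their surroundings with BaitC.

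**Figure D2:**
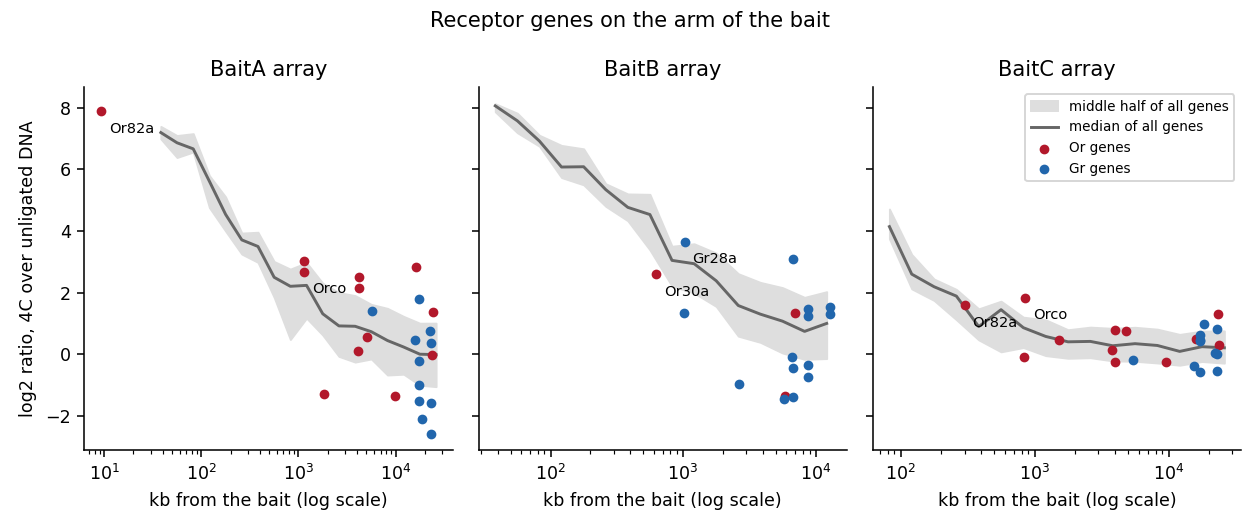
Level of the receptor genes on the arm of each bait (log2 ratio of 4C product over unligated DNA, vertical axis) against distance from the bait in kb (log scale), with the median of all genes at that distance as a line and the middle 50.0% in grey. Or82a, at 9.304 kb from BaitA, has the highest level (7.89), and receptor genes several Mb away scatter on both sides of the line.

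Among odorant receptors of known role, the pheromone receptors were low with BaitA. Or47b, a receptor for a fatty acid methyl ester that promotes courtship, differed from its arm by -1.84 with BaitA, 1.25 with BaitB and 0.30 with BaitC. Or65a, reported to respond to the male pheromone cis-vaccenyl acetate, differed by -1.98, -0.31 and 0.97. Or88a, which responds to fly odours, differed by -1.75, 2.48 and -0.52. All 3 pheromone receptors in the tables were lowered with BaitA, beside 25.4% of all genes. None of the 3 was lowered with BaitB or BaitC, and the list is too short to read against the background.

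The 3 receptors of the maxillary palp in the tables showed no common direction. With BaitC they were close together, at 0.23 for Or46a, 0.40 for Or59c and 0.22 for Or71a. With BaitA they were at -0.32, -2.12 and -0.32, and with BaitB at 0.40, -2.38 and 0.17, so that Or59c was lowered in 2 arrays. Of the 6 larval receptors, 3 were raised and 1 lowered with BaitA, 3 raised and 3 lowered with BaitB, and 0 raised and 1 lowered with BaitC. Over all genes, 25.6% were raised and 25.4% lowered with BaitA, 26.2% and 26.4% with BaitB, and 9.59% and 9.45% with BaitC. Or30a, counted as raised with BaitB, lies 625.92 kb from that bait and was above only 8 of 48 neighbours. Against the other genes within 250 kb, 4, 2 and 3 of the 6 were above with BaitA, BaitB and BaitC. The medians of these local differences were 0.88, -1.54 and -0.04. Or59a differed from its arm by 1.57, -2.70 and 0.52, and Or85c by 1.78, -1.73 and -0.52. Or45b was at -0.35, 1.59 and -0.21, and Or63a at 0.67, -1.33 and 0.65. Or1a was at 1.56, 1.00 and 0.10.

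Other odorant receptor genes stood at the ends of the range. Or92a, a receptor for the fermentation odour diacetyl, differed from its arm by 2.44 with BaitA, 0.09 with BaitB and 0.23 with BaitC. Or23a was at -1.63, -2.86 and 0.45. Or47a, which responds to pentyl acetate, was at -1.44, 2.03 and 1.27, and Or43b at 2.37, 0.80 and 1.24. Or47a was past 1 unit in every array, in both directions, and the other 3 were within 1 unit of the arm median in at least 1 array.

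Among gustatory receptors, the sugar receptors were mostly below their arms with BaitB. All 9 names on the list were in the tables, counting Gr5a, a trehalose receptor that the tables list as Tre. With BaitB 2 of 9 were above the arm median, 0 were raised (26.2% of all genes) and 5 were lowered (26.4% of all genes), and the median difference was -1.09. With BaitA 4 of 9 were above it and with BaitC 7 of 9, with medians of -0.13 and 0.42. Gr43a, a fructose sensor, differed from its arm by 0.70, -1.23 and 0.52 with BaitA, BaitB and BaitC. Gr61a, which takes part in glucose sensing, differed by 0.61, -1.28 and 0.51. The remaining 6 of the list are the Gr64 genes, which share 1 locus, so the 9 are not 9 independent places in the genome.

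Gr63a, a subunit of the carbon dioxide receptor (3L, 3894998 to 3896672, minus strand), had a level of 0.16 ± 2.63 (SD over 36 probes) with BaitA, 2.28 ± 3.14 with BaitB and 0.10 ± 1.59 with BaitC. It was high in the BaitB array, at percentile 92.6 of its arm, and near the arm median in the other 2 arrays. The large SD shows that its window held both high and low probes. Its partner Gr21a was not analysed here.

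The 7 bitter receptors in the tables were 4 of 7 above the arm median with BaitA and 2 of 7 with each of BaitB and BaitC. Gr66a, a receptor common to most bitter neurons, differed from its arm by 0.54, -0.11 and -0.63. Gr32a was at -1.25, -2.45 and 0.22, and Gr47a at -2.48, -0.66 and -1.63. Gr8a, part of the receptor for the plant amino acid L-canavanine, was at 0.62, -1.32 and -0.37. Gr39a was at 0.42, -0.18 and -0.53, and Gr93a, required for caffeine avoidance, at -1.39, 0.24 and 0.16. With Gr28a, none of these genes was on the same side of the arm median by 1 unit in all 3 arrays.

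**Figure D3:**
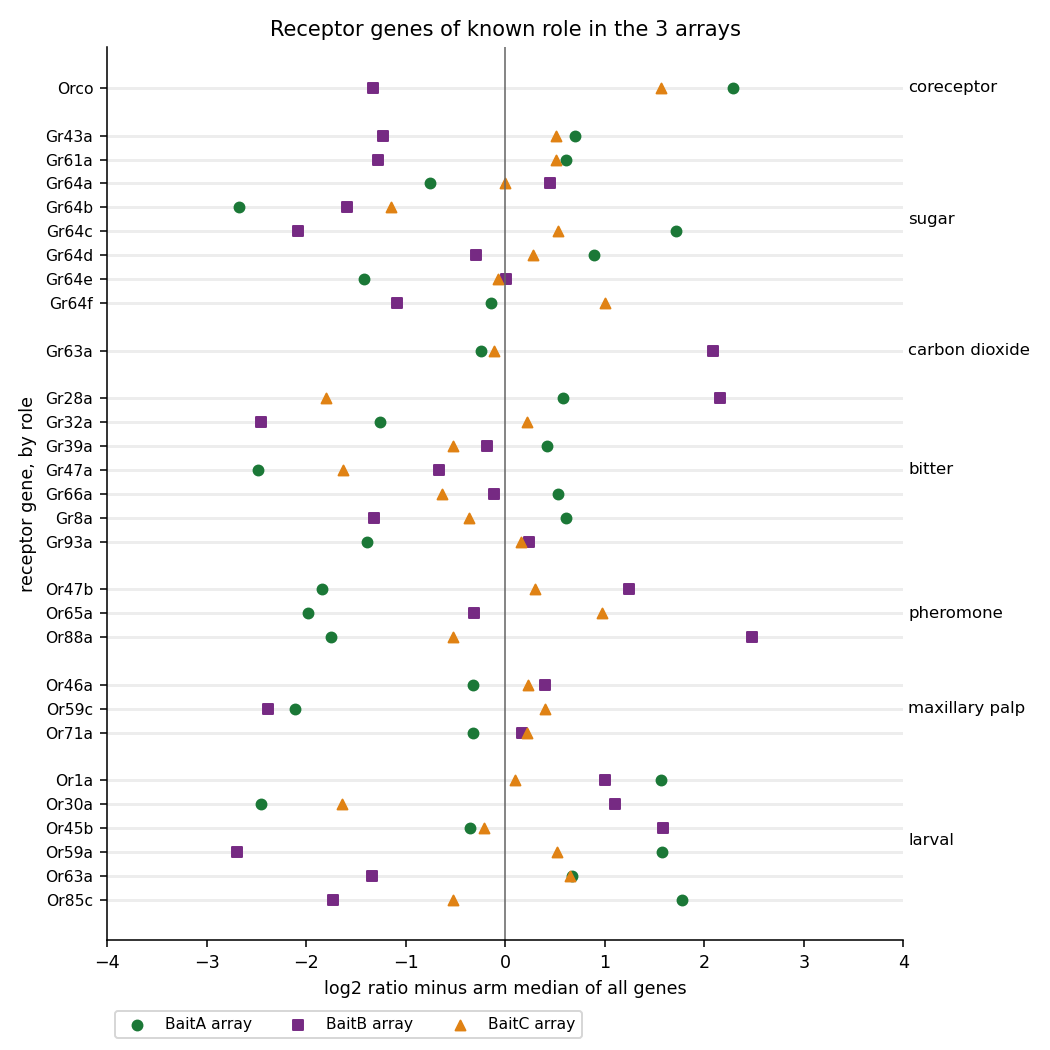
Difference from the arm median (log2 ratio, horizontal axis) of the receptor genes on the 7 role lists in the BaitA (circles), BaitB (squares) and BaitC (triangles) arrays. The 3 pheromone receptors lie between -1.98 and -1.75 with BaitA, and Orco lies at 2.29, -1.33 and 1.57; Gr5a, not a member by name, is not drawn.

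Receptor genes in tandem often differed strongly from the copy next to them. With start sites up to 20 kb apart, 45 of the 95 genes formed 16 clusters, 8 of them of 3 or more genes. The range of differences inside a cluster had a median of 1.87 log2 units with BaitA, 2.02 with BaitB and 1.10 with BaitC. The clusters lay wholly on 1 side of the arm median in 7, 9 and 6 of 16 cases. The same count was not made over clusters of other genes, so it has no background and is not read further. Neighbours with starts 1 to 2 kb apart, 18 pairs, differed by a median of 1.56, 1.77 and 0.64 with BaitA, BaitB and BaitC. All 1784 neighbouring gene pairs at this spacing differed by 1.02, 1.03 and 0.55. The windows of such receptor pairs shared a median of 19.2% of their probes, against 26.5% over all pairs. The part of shared probes in these differences was not tested. At more than 2 and up to 20 kb, 9 receptor pairs differed by 0.97, 0.77 and 1.02, and all 7259 pairs by 1.36, 1.35 and 0.69.

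The sugar receptor cluster of 6 genes on 3L, from Gr64a to Gr64f, spans 9.03 kb between its outer starts. With BaitA, the differences from the arm were -0.76 for Gr64a, -2.67 for Gr64b, 1.71 for Gr64c, 0.89 for Gr64d, -1.42 for Gr64e and -0.15 for Gr64f. Gr64b and Gr64c, next to each other, were thus 4.39 log2 units apart, the range of the whole cluster. With BaitB the 6 genes were at 0.45, -1.59, -2.08, -0.30, 0.01 and -1.09, and with BaitC at 0.00, -1.14, 0.54, 0.28, -0.07 and 1.01. Gr64b was the lowest with BaitA and BaitC and Gr64c with BaitB. The BaitA peak paired with 5 of these genes lies inside the span of Gr64c, at 4031177 to 4031387.

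Other clusters showed the same unevenness. On X, Gr10b, Gr10a and Or10a (a receptor for methyl salicylate, whose neurons also express Gr10a) differed from the arm by 3.07, -0.57 and -1.44 with BaitA. This range of 4.51 was the largest of any cluster in that array, and Gr10b was the highest receptor gene there. With BaitB they were at 2.18, 0.87 and 1.06, and with BaitC at 0.75, 0.76 and 0.00. On 2R, Gr59a and Gr59b start 1.642 kb apart. Gr59a (18968083 to 18969248, plus strand) had levels of 1.94 ± 1.21 (SD over 37 probes), 4.00 ± 1.57 and 0.36 ± 1.15, and its difference of 3.45 was the highest of the receptor genes in the BaitB array. Gr59b differed from the arm by -1.71 there, so the pair was 5.16 log2 units apart, the largest range of a cluster in that array.

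The Gr36 cluster on 2L ran downward along the arm with BaitA and BaitC. Gr36a, Gr36b, Gr36c and Gr36d were at 1.47, 0.50, 0.20 and -1.46 with BaitA, at -0.27, -0.03, -1.83 and -2.24 with BaitB, and at 0.52, 0.49, 0.05 and -0.42 with BaitC. In the Gr58 cluster on 2R, Gr58c, Gr58b and Gr58a were all above the arm median with BaitA (0.68, 2.76 and 2.48) and with BaitB (2.68, 0.59 and 0.78), and all below it with BaitC (-0.76, -0.23 and -0.16); the starts of Gr58b and Gr58a are so close that their windows share most probes. The Gr98 genes on 3R, of which Gr98b is a part of the L-canavanine receptor, were at -2.97 for Gr98b, -1.98 for Gr98c and -0.03 for Gr98d with BaitA. Gr98b was the lowest receptor gene of that array. With BaitB these 3 were at 0.44, -0.59 and 0.68 and with BaitC at -0.82, -0.28 and 0.56.

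Of the remaining clusters of 3 or more, Gr22c, Gr22b and Gr22a on 2L were at 0.91, 0.48 and 1.52 with BaitA, -1.95, 1.59 and -1.60 with BaitB, and -1.004, -0.94 and 0.89 with BaitC. Or65a, Or65b and Or65c on 3L were at -1.98, -1.69 and 1.27 with BaitA, -0.31, -0.69 and 2.04 with BaitB, and 0.97, -0.80 and -0.95 with BaitC. Gr93a, Gr93b, Gr93c and Gr93d on 3R were at -1.39, -1.90, 1.41 and -0.60 with BaitA, 0.24, -0.52, 1.23 and -0.73 with BaitB, and 0.16, -0.85, 0.36 and 0.18 with BaitC. The highest genes of these 3 clusters with BaitB were Gr22b, Or65c and Gr93c. Or65c and Gr93c were also the highest of their clusters with BaitA, and Gr93c with BaitC. Every cluster has a highest gene, so this is not read further. Gr59e and Gr59f, whose starts lie 0.13 kb apart, share nearly all their probes and are 1 measurement, lowered or nearly so in all arrays (-2.78 and -2.88, -1.93 and -1.81, -0.98 and -1.05).

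**Figure D4:**
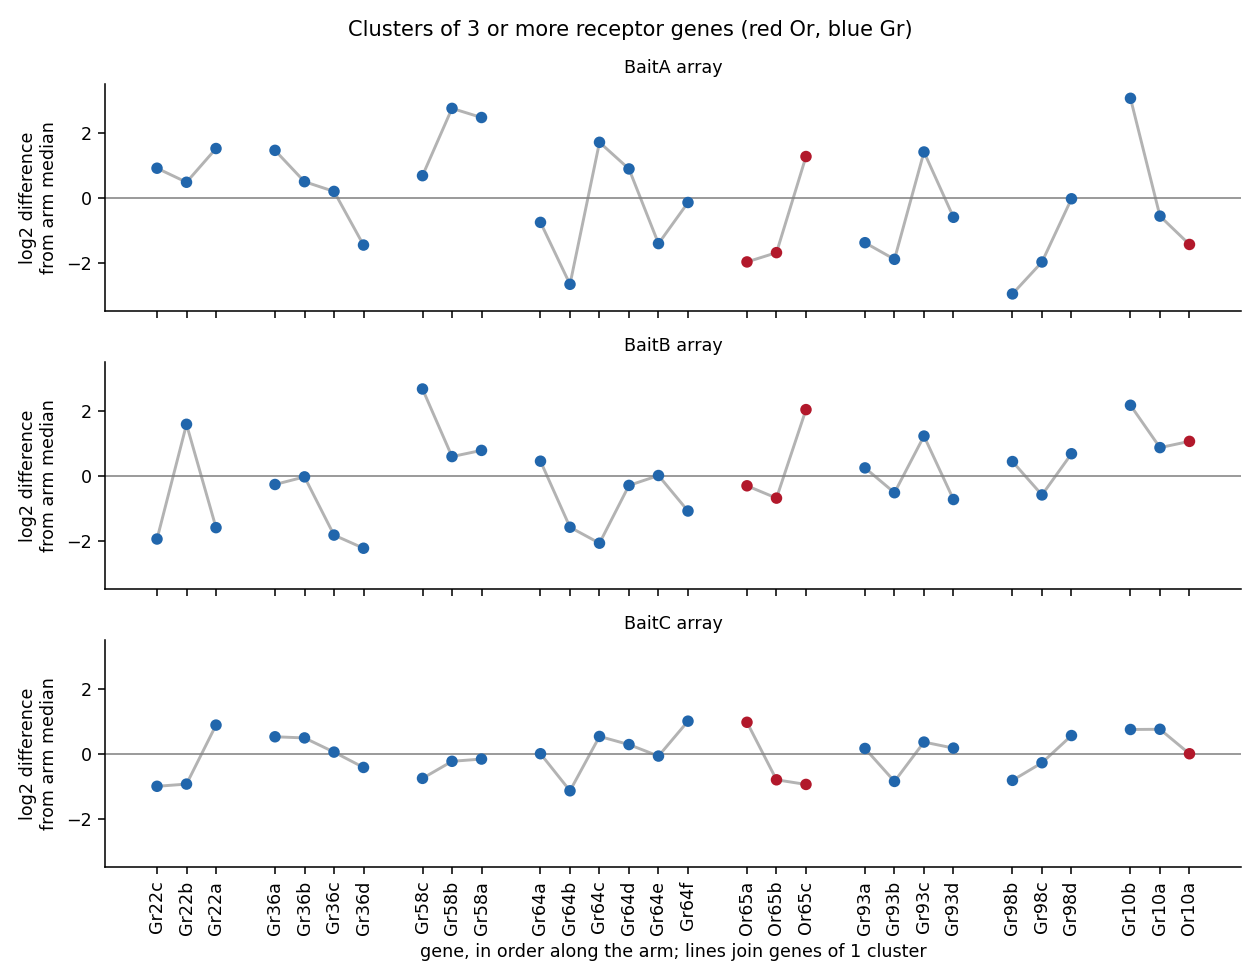
Difference from the arm median (log2 ratio, vertical axis) of the 29 genes in the 8 clusters of 3 or more receptor genes, in order along the arm, 1 panel per array; lines join genes of a cluster. Neighbouring genes jump between high and low, as from Gr64b (-2.67) to Gr64c (1.71) with BaitA.

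Or19a and Or19b gave nearly the same values although they are separate loci. Or19a, a receptor for citrus terpenes that guides egg laying, lies on the minus strand of X at 20035851 to 20037221. Or19b, a close duplicate of it, lies on the plus strand at 19988430 to 19989800. Or19a had levels of -1.49 ± 1.69 (SD over 37 probes) with BaitA, 2.73 ± 0.60 with BaitB and -0.02 ± 1.69 with BaitC. Or19b had -1.39 ± 1.77, 2.69 ± 0.66 and 0.09 ± 1.58 over 37 probes. Both were among the 3 highest receptor genes of the BaitB array, at 3.07 and 3.02 above the arm. Between duplicates, probes may read both copies, so their levels are uncertain. The counts in this text hold both genes. With the pair counted once, 20 of 94 receptor genes were raised with BaitB.

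The profiles of the pair were then aligned, a comparison chosen after the levels were seen to be close. It uses the same probes and is no independent support. In 100 bp steps aligned on the start sites, from 1000 bp before to 1000 bp after them, the profiles differed by a mean of 0.69 with BaitA, 0.36 with BaitB and 0.55 with BaitC. The 29 pairs of neighbouring receptor genes, aligned the same way, differed by medians of 2.54, 2.87 and 1.42, and by at least 1.03, 1.56 and 0.59. The mean difference of the Or19 pair thus lay below that of the closest of those pairs in every array. Pearson's r over the 20 steps was 0.86, 0.59 and 0.92 for the Or19 pair, and at most 0.74, 0.72 and 0.72 for the neighbouring pairs, so with BaitB a neighbouring pair had the higher r. From 3000 to 1000 bp before the start the Or19 profiles differed by 1.66, 2.64 and 1.56, within the range that those pairs showed near their starts. Probe sequences were not among the files, so reading of both copies by the same probes was not tested.

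**Figure D5:**
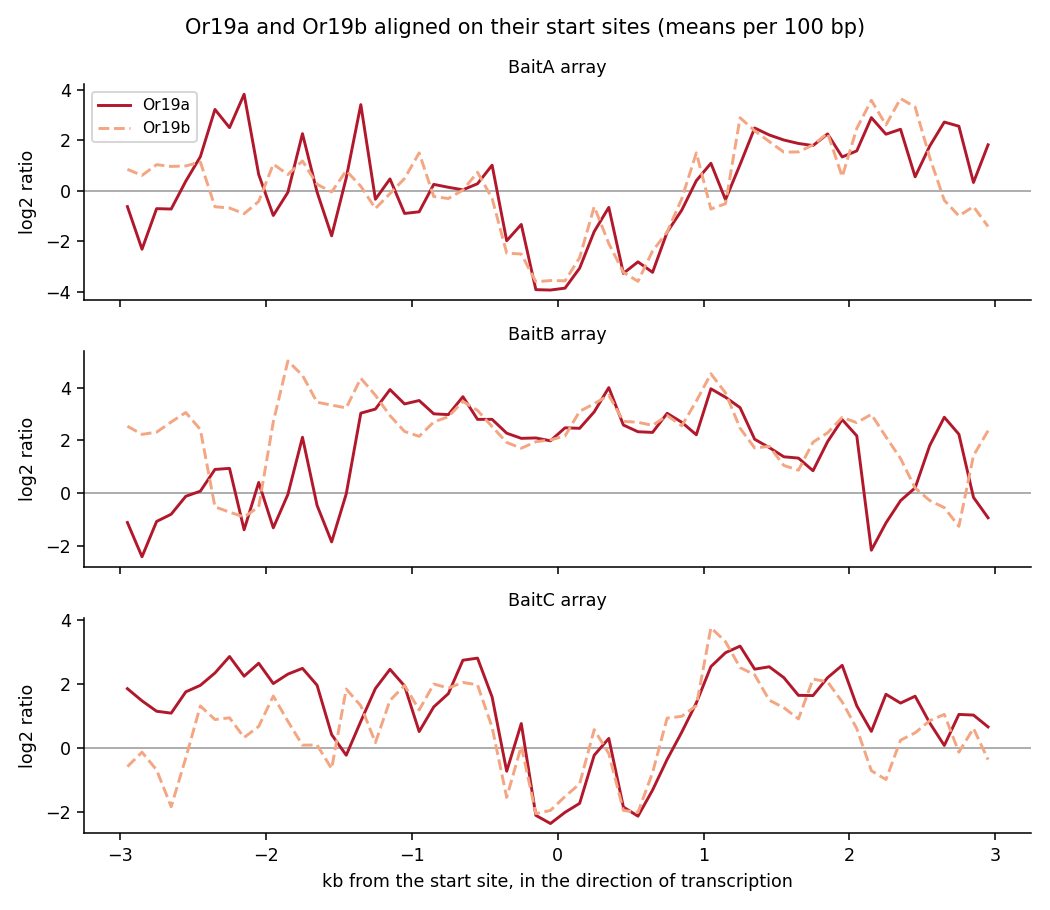
Mean log2 ratio per 100 bp (vertical axis) of Or19a (solid) and Or19b (dashed) against distance from the start site in kb, in the direction of transcription, 1 panel per array. Within 1 kb of the start the lines run together (mean difference 0.69, 0.36 and 0.55), and from 3 to 1 kb before it they part.

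The shares of receptor genes on the same side in all 3 arrays were slightly below those of all genes, a difference that was not tested. Of the 94 genes with a value in each array, 12 (12.8%) were above the arm median in all 3, beside 16.2% of all genes, and 12 (12.8%) were above it in none, beside 16.4%. The 12 above in all arrays were Gr39b, Gr43b, Or43b, Gr59a, Gr59d, Gr68a, Or69a, Or85f, Or92a, Gr93c, Or1a and Gr10b. Gr43b (Grl43a; 2R, 3546760 to 3548123, minus strand) was the only receptor gene raised in all 3 and the only one in the upper 10% of its arm in all 3. Its levels were 2.68 ± 2.24 (SD over 36 probes), 2.57 ± 2.20 and 1.17 ± 0.72, at percentiles 92.3, 90.4 and 90.9 of its arm. In windows of 5 kb its BaitA difference was -0.91, so the call with BaitA holds near the start site only. Gr59f and Gr64b were lowered in all 3 arrays. Raised in all 3 were thus 1.06% of receptor genes, beside 1.12% of all genes, and lowered in all 3 were 2.13%, beside 2.09%, so these counts were at the background. Across genes, Pearson's r of the differences was 0.08 for BaitA with BaitB, 0.24 for BaitA with BaitC and -0.10 for BaitB with BaitC, beside 0.15, 0.18 and 0.17 over all genes. These are across genes that share the array design and cutting sites and are not independent replicates.

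The authors' called peaks were then set beside the levels. Every gene counted was listed because such a peak lay nearby, at the looser cut-off of 0.2. The peak shares here and below, of receptor genes and of all genes, thus depend on the same peak calls. They are shares of listed genes and not rates over the genome. At an FDR of at most 0.05, 24 of 94 receptor genes were paired with a BaitA peak, beside 31.3% of all genes. With BaitB 25 of 95 were, beside 37.2%, and with BaitC 29 of 95, beside 30.8%. The shares of receptor genes were 25.5%, 26.3% and 30.5%. The median span of a receptor gene was 1380 bp, beside 1706 bp over all genes. Among genes with spans of at most 2 kb, a comparison added after the values were seen, the receptor shares were 26.7%, 24.1% and 29.9%, beside 27.5%, 32.2% and 27.0% of all such genes. The BaitB share was below that of all genes in both comparisons. For peaks overlapping the span or within 1 kb of a start, 12.8% of receptor genes were paired with BaitA, 7.37% with BaitB and 15.8% with BaitC, beside 17.8%, 21.1% and 17.2% of all genes. Among the short genes these shares were 12.8%, 6.90% and 16.1%, beside 11.7%, 14.5% and 12.0%. The BaitB share was thus again the lower one, while the BaitA and BaitC shares were below that of all genes and above that of short genes.

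Split by family, peaks were paired with 8 of 40 Or genes with BaitA (20%), 16 of 41 with BaitB (39.0%) and 18 of 41 with BaitC (43.9%). They were paired with 16, 9 and 11 of 54 Gr genes (29.6%, 16.7% and 20.4%), beside 31.3%, 37.2% and 30.8% of all genes. Neighbours share peaks: the BaitA peak in Gr64c alone accounts for 5 Gr genes, and 2 BaitA peaks in the Gr36 cluster for 4. On X, 8 of 11 receptor genes were paired with a BaitC peak, beside 40.5% of all X genes. This arm and array are given because the share stood farthest out. Of these genes, Gr10b, Gr10a and Or10a share 1 BaitC peak, and Or19a and Or19b are the duplicates whose levels are uncertain. Only Or43b was paired with a peak in each array, 1.06% of receptor genes beside 5.30% of all genes. Its peaks lay 3112 bp from the start site with BaitA, 3602 bp with BaitB and 642 bp with BaitC.

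The scores given with the peaks are the authors' and rank peaks within an array. Or82a was paired with 5 BaitA peaks scoring up to 8.96 (76781 to 78600, 4093 bp from its start), and the peak in its span scored 8.35. After it, the highest BaitA peaks paired with receptor genes were 3760 bp from the start of Or67b (5.66) and inside the span of Gr23a (5.51). With BaitB they were at Or49a (6.15), a receptor for the scent of parasitoid wasps, whose peak lies 3248 bp from its start, and at Gr59a and Gr59b, which share 1 peak (5.70). With BaitC the highest were paired with Gr9a (4.499), with Or59a (4.45, 4300 bp from its start), and jointly with Or10a, Gr10a and Gr10b (3.98). The Gr9a peak lies on X at 9954676 to 9955325, 334 bp from the start, and Gr9a was the highest receptor gene of the BaitC array, with a level of 2.06 ± 1.66 (SD over 37 probes), beside -0.64 ± 2.10 with BaitA and -1.12 ± 1.41 with BaitB. Gr9a lies within the span of CG15312, and 7 receptor genes in all start inside the span of another gene. The probes around these starts also lie in or near the host gene, so their values cannot be assigned to the receptor gene alone.

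Other genes of chemosensation gave no uniform direction either. Odorant binding proteins carry odours through the fluid around the neurons, and 39 of the 51 on the list were in the tables. Of these, 25 were above the arm median with BaitA, 17 with BaitB and 25 with BaitC. With BaitA 15 were raised, 38.5% beside 25.6% of all genes. Among them, Obp83a, Obp83b, Obp83ef, Obp84a and Obp93a lie on 3R, the arm of BaitA. Obp93a, which starts far along the arm at position 16955439, differed from it by 1.54. All genes 1467.8 to 2154.4 kb from BaitA had a median level of 1.31, beside 0.38 over that arm. From 2154.4 to 3162.3 kb it was 0.92, and from 14678 to 21544 kb, where Obp93a lies, it was -0.0040. Obp57d with Obp57e, and Obp58b, Obp58c and Obp58d with Obp59a, lie close together on 2R and are not independent places. This list was not compared with near genes. With BaitB 13 were lowered, 33.3% beside 26.4%, and 4 were raised, 10.3% beside 26.2%. The extremes were Obp50d at 2.76 and Obp50e at -3.08 with BaitA, Obp18a at 2.28 and Obp83a at -2.78 with BaitB, and Obp44a at 1.58 and Obp85a at -0.97 with BaitC. Ionotropic receptors, a separate family of chemosensory channels, were above the arm median in 19, 18 and 17 of 40 genes, of 66 on the list. Their extremes were Ir7b at 2.77 and Ir54a at -2.94 with BaitA, Ir87a at 2.53 and Ir60a at -2.98 with BaitB, and Ir94h at 1.69 and Ir87a at -1.56 with BaitC. The 7 cofactors and regulators on the list, such as lush, the binding protein for cis-vaccenyl acetate, and amos, a transcription factor that specifies olfactory sensilla, were above the arm in 4, 4 and 5 cases. Of these, amos was the highest with BaitA (2.75) and the lowest with BaitB (-3.31) and BaitC (-0.79). The lowest with BaitA was Snmp2 (-1.44), and lush was the highest with BaitB (2.04) and BaitC (0.74).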

How the data were processed

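The values used were the log2 ratios per probe that the authors deposited. The base and direction are not written in the table: base 2 was assumed, and the 4C channel was taken as numerator because ratios are raised at each array's own bait. Peaks were called per array with NimbleScan, per the file headers. The peak score and the FDR, which plays the part of a q-value, were taken as the authors deposited them. Coordinates follow the files, which name no build. Their arm lengths are those of Drosophila Release 5, and the Release 6 gene table was used for names alone. The 2157868 probes of an array lie 55 bp apart (median), and the median of an array was subtracted from its values. Genes needed at least 5 probes. Computations used Python 3.11.15 and numpy 2.4.6, and were tested on simulated data with known shifts. The receptor genes, role lists and rules were chosen with earlier results of these data known. Named were the 5 highest and 5 lowest receptor genes per array, those in the upper or lower 10% in all arrays, those with the 3 highest peaks, those nearest each bait, clusters of 3 or more, the role lists, and the extremes of the other lists. Some genes were named besides because they illustrate a count. PCR products saturate, so a ratio is not a contact frequency.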

Additional observations from a re-analysis of the deposited data

How the results depend on the processing

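No paired analysis was possible because there is 1 array per bait. Of 216 recalculated summary values, 188 stayed within their interval over genes. Part of the 216 could hardly move. Each receptor gene had at least 30 probes, so requiring at least 1 or at least 20 kept the same receptor genes. Leaving out 20 kb around the bait left the BaitA and BaitC medians as they were. The count of 188 is thus no measure of robustness. The receptor median moved to -0.32 with BaitA for Or genes alone and to -0.15 with BaitC for probes within 500 bp, where 20% of receptor genes were lowered (14.7% of all genes). With windows of 2 kb in the BaitC array, 42.1% of receptor genes were above the arm median and 0% were lowered (4.52% of all genes). With windows of 5 kb and BaitA, 11.7% were raised (10.4% of all genes) and 20.2% lowered (10.8%). With BaitB, 11.6% were raised (11.0%) and 14.7% lowered (11.2%). With BaitC, 43.2% were above, 1.05% raised (1.15%) and 2.11% lowered (1.55%). By the median over probes 36.2% were raised with BaitA (34.3%), and with probes inside the span 14.9% were lowered with BaitA (23.0%). The peak shares that follow are again shares of listed genes, not rates over the genome. Peak pairing with BaitA, BaitB and BaitC was 1.06%, 9.47% and 15.8% at an FDR of at most 0.01 (2.52%, 14.3% and 16.9% of all genes). At 0.1 it was 44.7%, 48.4% and 41.1% (51.2%, 57.2% and 41.7%), and at 0.2 it was 67.0%, 67.4% and 66.3% (69.7%, 71.4% and 59.5%). For peaks near the gene it was 12.8%, 7.37% and 15.8% (17.8%, 21.1% and 17.2%). The spread within clusters came to 1.05, 0.61 and 0.44 with BaitA, BaitB and BaitC in windows of 2 kb and to 0.27, 0.71 and 0.18 in windows of 5 kb, which neighbours share. Of 416 values of single genes, 68 changed sign, 53 of them in windows of 2 or 5 kb. For 12 of the 68 the gene had been raised or lowered. In windows of 5 kb these were Gr32a (0.36), Gr59b (0.41) and Or67b (0.10) with BaitB, Gr43b (-0.91), Gr47a (0.039), Or10a (0.60), Or19a (0.48) and Or59a (-0.10) with BaitA, and Gr64b (0.0057) with BaitC. In windows of 2 kb they were Gr59b (0.35) and Or83a (0.27) with BaitB and Or19a (0.0048) with BaitA. Centring on the major arms without the bait would move the centre by a constant of -0.22, -0.49 or -0.05 per array, which cannot move a difference from an arm and is left out of these counts. The number of arrays limits the precision.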
